A study of Mus musculus with 12 samples.

Results

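Heparan sulfate proteoglycans are proteins that carry long sulfated sugar chains, and through those chains they hold growth factors, morphogens and matrix proteins at the cell surface or in the basement membrane. Perlecan (Hspg2) and agrin (Agrn) are secreted into basement membranes, the syndecans (Sdc1 to Sdc4) span the cell membrane, and the glypicans (Gpc1, Gpc2, Gpc5 and Gpc6) are tied to it by a lipid anchor. In the brain these proteins are found around blood vessels, on neurons and on glia, and heparan sulfate is a known component of amyloid plaques.

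DNA methylation was examined at the CpG sites of these 10 genes in the brains of 12 mice. A site was 1 cytosine of a CpG on 1 strand, within the gene or up to 2 kb upstream of it (GENCODE vM21 basic annotation, mm10), and it was kept where at least 9 of the 12 animals had 10 or more reads. In all, 1590 sites met this rule, which was 0.0937% of the 1697482 sites that met the same coverage rule on the autosomes and X. Hspg2 held 243 of them, Agrn 223, Sdc1 180, Sdc2 47, Sdc3 148, Sdc4 78, Gpc1 248, Gpc2 81, Gpc5 132 and Gpc6 210. The sites were chosen by their coverage. The genes were selected on their shared biology and on the measured difference between the genotypes at 1 site in an intron of Hspg2, which was known from earlier results of these data, so differences between the genotypes in these genes are given as descriptions, by their values and by counts beside the same counts over all sites.

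The wild-type (Wt) group had 4 animals, of which 3 were labelled female and 1 male. The transgenic (Tg) group had 8 Tg2576 animals, of which 4 were labelled female and 4 male. All were labelled 11 months old, and the tissue of each animal was a mixture of hippocampus and cortex, so levels are averages over many cell types. Tg2576 mice carry a transgene for human amyloid precursor protein with the Swedish double mutation, driven by a prion protein promoter, and the Wt mice lack it. The question put to the data was whether the methylation of these genes differed between Wt and Tg brains. Reduced representation bisulfite sequencing (RRBS) was used, in which DNA is cut at CCGG and unmethylated cytosines are read as T. The methylation level of a site is the percentage of its reads that are still C.

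The 12 libraries held between 1380585 and 2652395 listed sites each. The median coverage of the sites of these genes was 20 reads in the shallowest library, Tg female 4, and 58 in the deepest. The libraries listed 1195 to 1583 of the 1590 sites, and Tg female 4, Wt female 2 and Tg male 1 lacked the most, with 395, 259 and 221 missing. Sites on the edge of the coverage rule were those listed by 9 libraries (169 sites, mean level 54.6%) and, just outside it, those listed by 8 (171 sites, mean level 43.5%). The library labelled Wt male had a mean level on X of 19.9%, against 20.7% to 23.0% in the libraries labelled female and 5.50% to 5.67% in the Tg males. Its sex chromosomes thus went against its label. The counts below include this library unless stated otherwise, and only some of them are also given without it. The read counts also had a feature that bears on every test of reads. At the sites of these genes, 72.7% of the coverage values were even numbers (65.3% to 82.2% in single libraries), where unrelated reads would give close to 50%. At 10 to 14 reads the share was 84.7%. The same held over all sites of the genome, at 73.7%. The cause was not tested, and the count test was repeated with all counts divided by 2.

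The CpGs called on both strands in the same direction by the binomial model, described below, are shown first. The Agrn CpG that holds the called site furthest above Wt in Tg is added to them. All were chosen by their differences, and the overdispersion model, also described below, called none of them. Each line gives 62 bases of the plus strand of mm10 with the CpG in capitals.
Hspg2 intron, chr4:137503020-137503081: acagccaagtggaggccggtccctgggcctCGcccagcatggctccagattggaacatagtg
Hspg2 intron, chr4:137503056-137503117: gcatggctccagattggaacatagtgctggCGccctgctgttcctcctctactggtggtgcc
Hspg2 coding exon, chr4:137507988-137508049: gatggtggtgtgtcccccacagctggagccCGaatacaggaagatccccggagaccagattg
Agrn intron, chr4:156169158-156169219: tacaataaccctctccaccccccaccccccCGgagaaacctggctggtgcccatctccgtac
Sdc4 intron, chr2:164432983-164433044: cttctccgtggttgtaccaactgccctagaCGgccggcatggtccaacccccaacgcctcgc
Gpc1 intron, chr1:92844475-92844536: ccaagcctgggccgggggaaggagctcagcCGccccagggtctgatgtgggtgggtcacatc
Gpc2 coding exon, chr5:138275903-138275964: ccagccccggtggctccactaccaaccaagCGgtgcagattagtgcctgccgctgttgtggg

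The promoters of all 10 genes were almost free of methylation in both groups. Within 1000 bp of an annotated transcription start, which is called the promoter here, lay 1053 of the 1590 sites, at a mean level of 1.06%. The remaining sites lay in introns (392 sites, mean level 50%), coding exons (140 sites, 67.3%) and untranslated exons (5 sites). No site fell between 1 and 2 kb upstream. Averaged over the sites covered in all 12 animals, the promoter level of a single animal ran from 0.104% to 3.59%, and the group means ran from 0.531% in the Wt promoters of Sdc3 to 1.68% in the Wt promoters of Hspg2. Methylation was lower where CpGs were dense, as is usual in mammals. Sites with 15 or more CpGs within 100 bases averaged 1.60% (842 sites), and those with fewer than 5 averaged 64.2% (115 sites).

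Outside promoters the genes differed widely. Over all covered sites outside promoters, the mean level was highest in Agrn (83.5%, 30 sites) and Gpc5 (81.1%, 50 sites), followed by Hspg2 (71.4%, 173 sites) and Gpc6 (58.2%, 87 sites). It was 42.2% in Gpc1 (53 sites), 28.4% in Sdc4 (22 sites), 25.1% in Sdc3 (17 sites), 18.2% in Gpc2 (50 sites) and 18% in Sdc1 (52 sites). The coding exons of Gpc2, a short gene of 6.35 kb, averaged 19.3%, against 83.9% in those of Hspg2 and 93.0% in those of Gpc1.

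To compare animals over the same sites, the level of a gene body was averaged only over the sites that all 12 animals covered, which were few in several genes, so these values can differ from the means over all sites. Over 27 sites, the Hspg2 body had 61.1% ± 2.18 in the 4 Wt animals and 57% ± 2.33 in the 8 Tg animals (mean ± SD, here and below). Agrn had 79.4% ± 11.4 and 77.1% ± 8.97 over 4 sites, Gpc1 36.6% ± 4.53 and 37.5% ± 2.79 over 21 sites, and Gpc6 28.3% ± 5.34 and 24.7% ± 4.59 over 14 of its 87 sites. Sdc3 had 25.9% ± 9.77 and 20.9% ± 7.34 over 6 sites, Sdc4 13.4% ± 3.81 and 20.4% ± 11.0 over 8 sites, Gpc2 18.3% ± 1.89 and 19% ± 2.59 over 37 sites, and Sdc1 8.75% ± 0.429 and 10.1% ± 0.738 over 42 sites. The value for Gpc5, 96.1% ± 0.909 in Wt and 94.5% ± 1.81 in Tg, came from 7 sites within 97 bases on 1 strand of 1 intron and does not describe the rest of that gene. Sdc2 had too few sites outside its promoter for a body value.

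**Figure D1:**
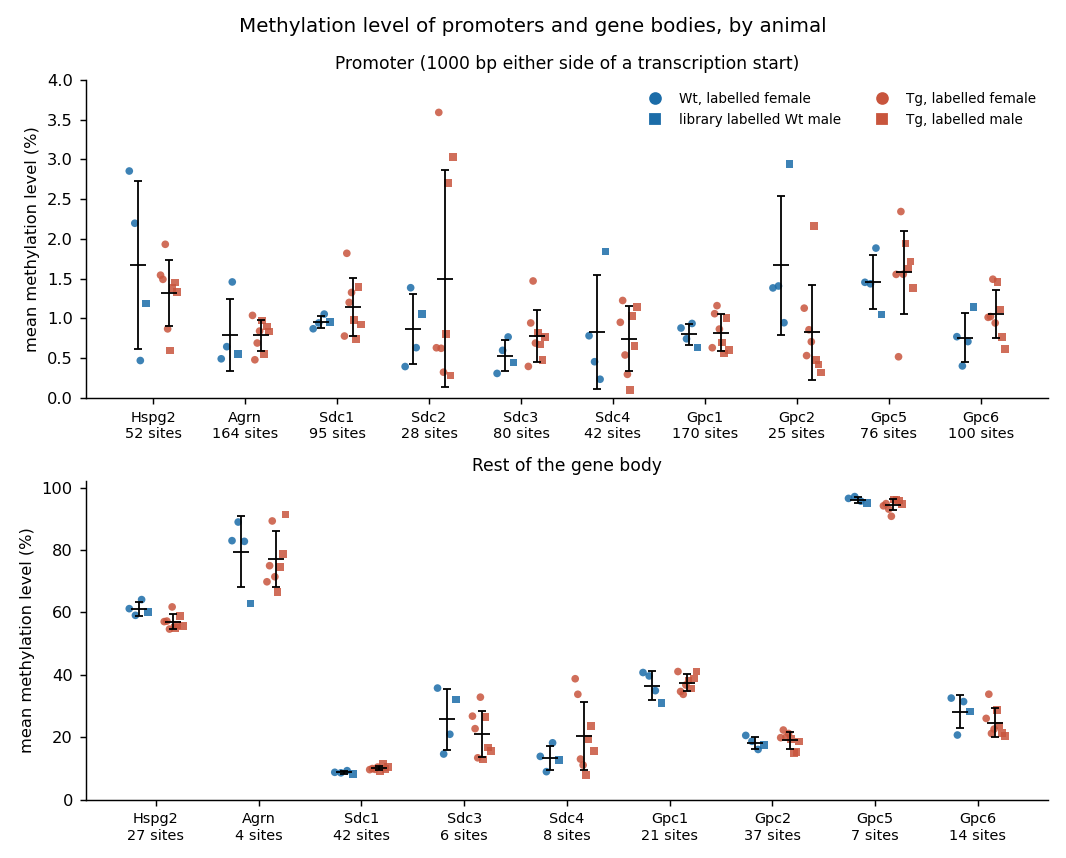
Mean methylation level in percent of the promoter (upper panel) and of the rest of the gene body (lower panel) of each gene, over the sites that all 12 animals covered; points are the 12 animals, and the black bars are the group mean ± SD. Promoters stay under 4%, while bodies run from about the level of the Sdc1 body (8.75% in Wt) to that of Gpc5 (96.1% in Wt), and the Wt and Tg points overlap in every gene.

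Neither the promoters nor the bodies separated Wt from Tg. Of the 19 regions (10 promoters and 9 bodies), 0 passed an adjusted p under 0.1 in limma with sex as a covariate, fitted over 24113 gene regions of the genome, where 0% were called. At an unadjusted p under 0.05, limma picked 1 of the 19 (against 4.19% of all regions), the Gpc2 promoter, at 1.67% ± 0.874 in Wt and 0.826% ± 0.599 in Tg. The exact permutation test over all 495 splits of the animals, which left sex out, also called 0 of the 19. At an unadjusted p under 0.05 it picked 2, the bodies of Hspg2 and Sdc1. The share of all regions at that threshold was not counted for this test. The Hspg2 body includes the intron site on whose difference the genes were selected, so its result is not separate from that choice. The means were higher in Tg in 11 regions and lower in 8, and the ranges of the animals overlapped in all 19. For Hspg2 the body was 59.1% to 64.1% in the 4 Wt animals and 54.7% to 61.8% in the 8 Tg animals, with a median of 56.6%. All but 1 Tg animal were therefore below the lowest Wt animal, and Tg female 4 was the exception. With sites covered in at least 9 animals, the fitted difference for the Hspg2 body changed from -3.77 to 0.786 percentage points, so its direction rests on which sites are averaged. In Sdc1, the Wt animals lay between 8.28% and 9.31% and the Tg animals between 9.16% and 11.6%.

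Single sites were compared next with the binomial model, a logistic regression on methylated and unmethylated reads with sex as a covariate, in which a site is called at an adjusted p under 0.1 and at least 10 percentage points between the read-weighted group levels. This model treats each read as independent. It called 89 of the 1590 sites (5.6%), against 4.37% of all sites tested. Here and below, all sites include 30100 on X, where the Tg males had low levels, while the 10 genes are autosomal. In Tg, 50 of the 89 were higher and 39 were lower, against backgrounds of 2.38% higher and 1.99% lower. The direction of the majority was not stable. When the library labelled Wt male was left out, 66 sites were called (against 3.68% of all sites), 28 higher and 38 lower, and lower calls also led without Wt female 2 (42 higher, 47 lower), without Wt female 3 (43 and 46) and in the animals labelled female only (84 calls, 41 and 43, against 4.98% of all sites). Without Tg female 1 the count was 58. With all counts divided by 2 the count was 7, all of them among the 89, against 0.376% of all sites. They were the Hspg2 site at 137503051, 1 site each in Agrn and Gpc2, and 2 each in Gpc1 and Gpc6. The genes were selected on the difference at that Hspg2 site, so its call here is not separate from that choice. At a minimum of 20 reads 22 sites were called, against 1.84% of all sites. Among sites covered in all 12 animals it was 23, against 1.72%, and at a difference of 25 points or more 10, against 0.48%. With the strands of a CpG summed it was 58 of 1035 CpGs (5.6%), against 4.97%.

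Most of the calls lay at intermediate levels. Of the 89 calls, 71 had a level between 10% and 90%, which was 24.3% of the 292 sites of these genes at such levels, against 20.1% of all sites at such levels. The median size of the difference was 16.5 points, and 94.4% of the called sites had a dispersion estimate above 1, that is, more spread between animals than counting error gives, as had 95.4% of all called sites of the genome. The overdispersion model, which scales each test by that spread, called 0 sites, and 0% of all sites. At an unadjusted p under 0.05 it picked 139 of the 1590 sites (8.74%), against 9.34% of all sites. Limma on logit levels also called 0, with 96 sites (6.04%) under an unadjusted p of 0.05 against 5.2% of all sites. The ranges of Wt and Tg did not overlap at 2 of the 1590 sites (0.126%), against 0.25% of all sites. These were the Hspg2 site at 137503051, on whose difference the genes were selected, and a Gpc5 site at 115377350 that was not called.

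**Figure D2:**
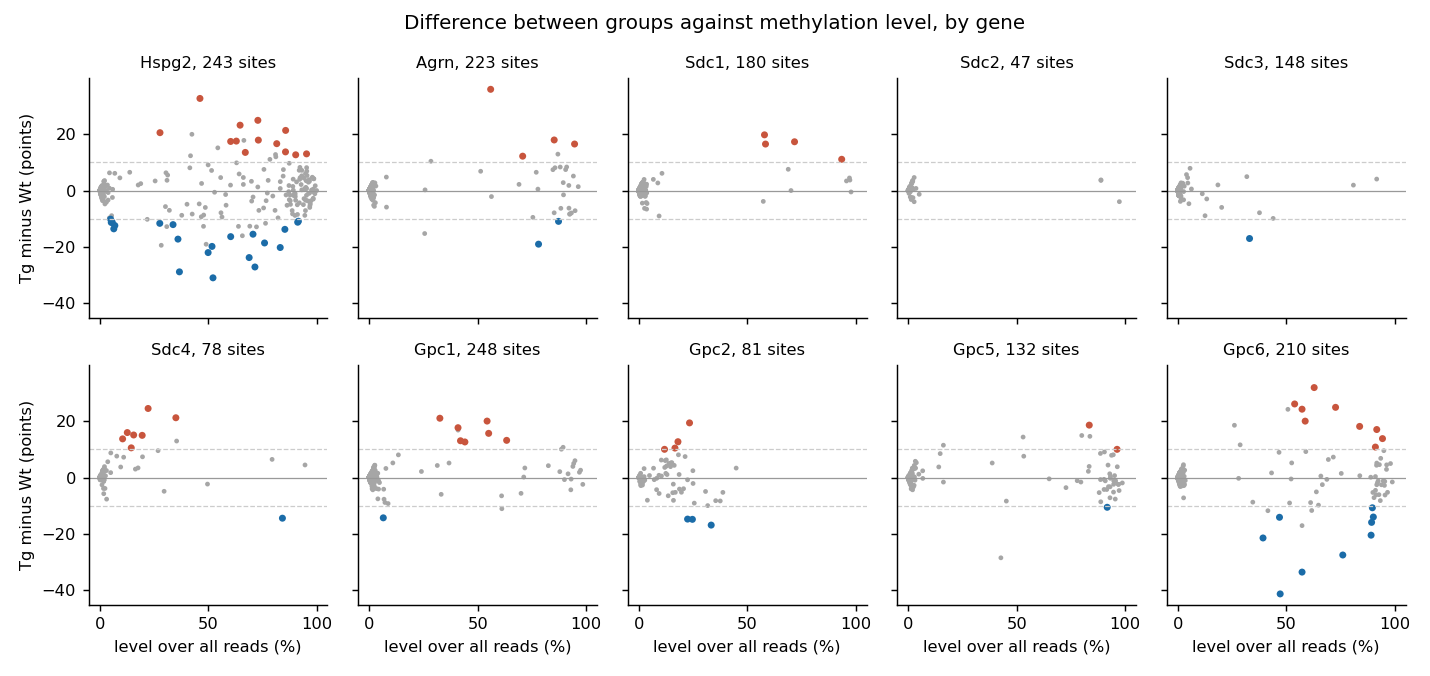
Read-weighted difference in percentage points (Tg minus Wt) against the level over all reads in percent for the 1590 sites, 1 panel per gene; red points are sites called higher and blue points sites called lower in Tg by the binomial model, grey points are not called, and the dashed lines mark 10 points. Unmethylated sites cluster at the left with small differences, and the calls lie mainly between 10% and 90%.

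Perlecan is a large matrix protein of vascular basement membranes, built of many repeated modules. Its gene, which runs from 137468769 to 137570630 on the plus strand of chromosome 4, held 34 of the 89 calls (14% of its 243 sites, against 4.37% of all sites), with 13 higher and 21 lower in Tg. It also held 106 of the 292 sites at intermediate levels, and 25 of those (23.6%) were called, against 20.1% of all sites at such levels. Of the 21 lower calls, 5 were promoter calls that came from 1 animal, as described below. The site known from earlier results lies in an intron on the minus strand at 137503051, 34282 bases from the gene start, and is the cytosine opposite the capital pair in the first sequence above. Its level was 44.1%, 46.3% and 48.7% in the Wt females and 68.9% in the library labelled Wt male. In Tg it was 18.6%, 10%, 18.2% and 16.7% in females and 20%, 22.2%, 24.2% and 39.0% in males. Every Wt animal was above every Tg animal, at 12 to 68 reads per animal, and the read-weighted difference was -28.8 points.

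The groups overlapped at the other cytosines around it. The same CpG on the plus strand had 12.5%, 48.0%, 40.5% and 32.0% in Wt and 8.33% to 54.5% in Tg, with a median of 21.4%, so the groups overlapped across nearly their whole range. At the next CpG, shown in the second sequence, the means were 46.0% ± 30.1 in Wt and 32.0% ± 18.8 in Tg on the plus strand at 137503086, and 38.6% ± 16.1 and 30.8% ± 14.3 on the minus strand at 137503087. Both strands were called lower in Tg, by 17.2 and 12.1 points, and both overlapped between the groups. Without Wt female 2 the first difference was -8.16 points, and without the library labelled Wt male the second was -3.14 points. The cytosines 15 bases before (137503036) and 68 bases after (137503119) the known site were at or below 12.5% in every animal but Tg male 3 at 137503119 (29.4%), and differed by -0.15 and 0.43 points. The minus-strand sites at 137503008 and 137502904, each covered in 9 animals, differed by 1.95 and 12.3 points in the other direction and were not called. Over the 6 sites from 137503036 to 137503119 that all animals covered, the mean was 29.9% ± 6.75 in Wt and 19.5% ± 9.10 in Tg, and the animals overlapped. The 6 sites include the known site at 137503051, so this difference draws in part on the value the genes were selected on. Neighbouring sites on a strand are often read from the same fragments, so they are not separate measurements.

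**Figure D3:**
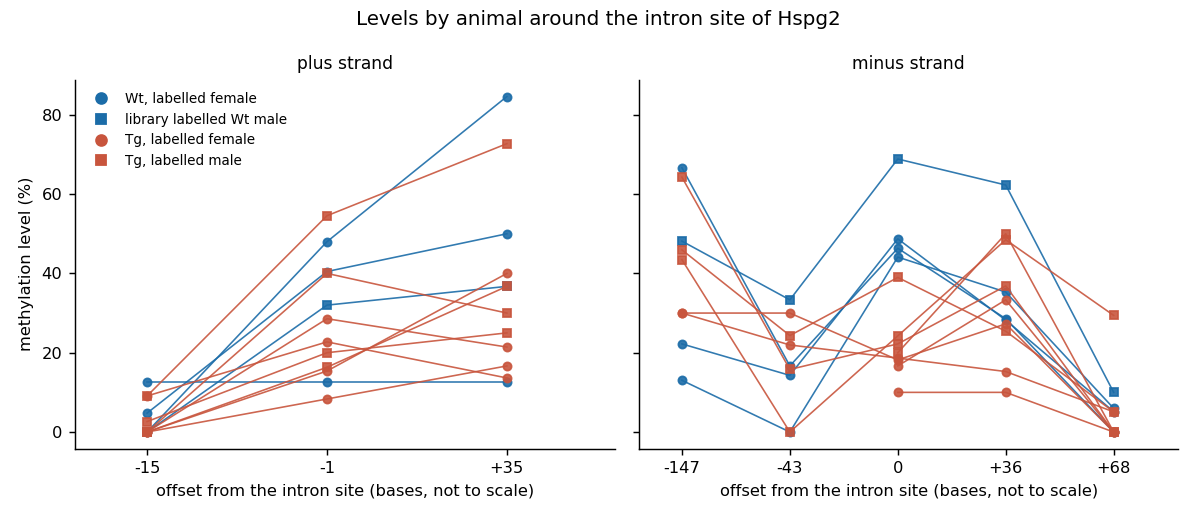
Methylation level in percent of each animal at the 8 covered cytosines around the intron site of Hspg2, by offset in bases from that site, on the plus strand (left) and the minus strand (right); lines join the sites of 1 animal. The Wt animals lie above all Tg animals only at offset 0, where they range from 44.1% to 68.9% against 10% to 39.0%.

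A second CpG of Hspg2 was called lower in Tg on both strands, in the coding exon shown in the third sequence. On the plus strand (137508018) the level was 65% ± 14.2 in Wt and 45.2% ± 17.6 in Tg, and on the minus strand (137508019) it was 73.5% ± 21.5 and 57% ± 17.1. The intronic site 51 bases upstream, at 137507967, was lower as well, at 63.9% ± 12.4 in Wt and 42.3% ± 15.6 in Tg. The groups overlapped at all 3 sites. The difference at 137508018 moved from -19.8 to -12.6 points without Wt female 3, and that at 137508019 from -16.3 to -28.1 points without Wt female 1. The other calls in Hspg2, chosen for mention after their values were seen, did not share a direction. On 1 strand of an intron, covered in 3 Wt and 7 Tg animals, neighbouring calls at 137517892, 137517923 and 137517958 differed by 32.6, -30.9 and 17.9 points. In a coding exon near the end of the gene, the plus strand of a CpG at 137564035 was lower in Tg by 27.1 points and its minus strand at 137564036 was higher by 24.9 points.

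The 5 promoter calls among the 10 genes were all in Hspg2, and they came from 1 animal. They lay within 22 bases on the plus strand, starting 171 bases past the gene start. In Wt female 1 their levels were 40% to 42.9% at 28 to 30 reads, and no other animal exceeded 8% at any of them. On the minus strand the same CpGs were at 3.33% in Wt female 1 at 60 reads and at most 3.92% in the others. Without that animal, 0 of the 5 were called.

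**Figure D4:**
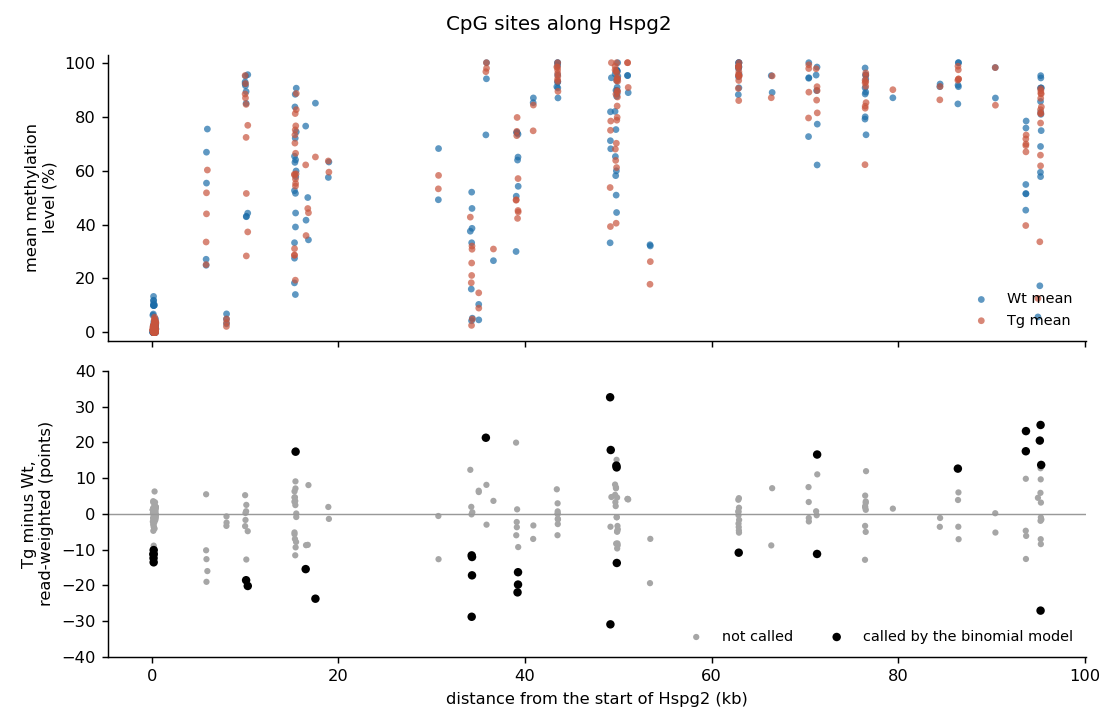
Sites along Hspg2 by distance in kb from its start: the upper panel gives the mean level in percent of Wt and Tg animals, and the lower panel the read-weighted difference in percentage points, with the 34 called sites in black. The start of the gene is unmethylated, levels are high through most of the body, and called sites lie on both sides of 0.

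Agrin organizes the neuromuscular junction and is a major proteoglycan of brain capillary basement membranes. Its gene had 6 calls of 223 sites (2.69%, against 4.37% of all sites), 4 higher and 2 lower in Tg, and 3 calls without Tg female 1. The site with the smallest overdispersion p, an intronic cytosine on the plus strand of chromosome 4 at 156169188, had 50%, 45.5% and 23.5% in the Wt females and 31.0% in the library labelled Wt male. In Tg it ran from 40% to 100% over 7 animals, with a mean of 70% ± 18.8, and only Tg female 2 lay within the Wt range. The difference of 35.9 points was the largest in favour of Tg at any called site of the 10 genes. The coverage there was 10 to 36 reads. This site was 1 of the 7 that were still called with the counts divided by 2.

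Syndecans bind matrix and growth factors at the cell surface, and their 4 genes together had 13 calls of 453 sites (2.87%, against 4.37% of all sites). In Tg 11 were higher (2.43%, against 2.38% of all sites) and 2 lower. Sdc4 had 7 higher and 1 lower of 78 sites (10.3% called), but only 3 calls in all without Tg female 1, and 5 without Wt female 2 or without the library labelled Wt male. Of these, 6 lay within 135 bases of 1 intron on chromosome 2, from 164432883 to 164433018, and were higher by 10.5 to 24.5 points. At the CpG shown above, the plus strand (164433013) had 21.9%, 0%, 7.46% and 11.6% in Wt and 19% to 56.1% in 7 Tg animals. Only Wt female 1 lay within the Tg range. On the minus strand (164433014) the level was 0% in 3 Wt animals and 22.7% in Wt female 3, and in Tg it ran from 0% to 57.1%. Its difference of 10.5 points was 18.9 without Wt female 3 and 6.35 without Tg female 1, and it was nearly as small without the library labelled Wt male. The mean over the run of 6 sites covered in all animals, from 164432890 to 164433018, was 3.92% ± 5.30 in Wt and 15.1% ± 13.9 in Tg, with overlap between the animals.

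Sdc1, known as a marker of plasma cells and epithelia, had 4 calls of 180 sites (2.22%, against 4.37% of all sites), all higher in Tg. It had 1 call left without Wt female 2 and 2 without Wt female 3. Of the 4 calls, 3 lay together in an intron on chromosome 12. At 8785260 the levels were 46.0% ± 20 in Wt and 64.3% ± 25 in Tg, at 8785278 they were 61.2% ± 16.6 and 79.3% ± 13.7, and at 8785310 they were 49.6% ± 2.28 and 67.7% ± 15.5. Over the run of 4 sites covered in all animals from 8785260 to 8785310 the mean was 55.6% ± 6.47 in Wt and 70.6% ± 8.55 in Tg, with overlap between the animals. The fourth call was a coding site at 8791648, at 79.2%, 81.2% and 80.0% in 3 Wt animals and 100% in Wt female 1, against 90.9% to 100% in Tg, and its difference moved from 11.1 to 18.3 points without Wt female 1. Sdc3, a syndecan of neurons, had 1 call of 148 sites (0.676%), an intronic site on the minus strand of chromosome 4 at 130797781. The level there was 43.9% ± 18.7 in Wt and 27.5% ± 10.1 in Tg. That difference of -17.0 points was -7.11 without Wt female 1, when Sdc3 had 0 calls, and -28.2 without Wt female 3. Sdc2 had 0 calls of 47 sites by the binomial model. In the overdispersion model 4 of the 47 had an unadjusted p under 0.05, where 9.34% of all sites did, and those 4 lay in its promoter.

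Glypicans present Wnt, Hedgehog and growth factor ligands, and their genes had 36 calls of 671 sites (5.37%, against 4.37% of all sites). In Tg 22 were higher (3.28%, against 2.38%) and 14 lower (2.09%, against 1.99%). Gpc1, a glypican found on neurons, had 7 higher and 1 lower of 248 sites (3.23% called, against 4.37% of all sites). It had only 2 calls without Tg female 1 and 4 without the library labelled Wt male. The CpG at 92844505 and 92844506 on chromosome 1, in an intron that overlaps the gene model Gm29480, was higher on both strands. Its plus strand had 31.6%, 52.2%, 44.1% and 34.9% in Wt. In Tg it had 77.6%, 62.5%, 62.5% and 71.4% in females and 52.1%, 56.4% and 65.1% in 3 males. The highest Wt animal and the lowest Tg animal thus overlapped by a narrow margin. The minus strand had 31.5% ± 12.1 over 3 Wt animals and 46.7% ± 10.8 over 6 Tg animals, and overlapped. Its difference was 17.7 points, and 10.4 without the library labelled Wt male. The call lower in Tg, at 92848782, was a site of low level, at 13.1% ± 11.7 in Wt and 2.28% ± 3.22 in Tg, and its difference moved from -14.3 to -8.72 points without the library labelled Wt male. Both 92844505 and 92848782 were still called with the counts divided by 2.

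Gpc2, which is expressed in developing neurons, had all 7 of its calls within 253 bases on chromosome 5, in coding exons with intronic sites between them, a stretch that overlaps the gene model Gm43720. Gpc2 was called at 7 of its 81 sites (8.64%, against 4.37% of all sites). It had 3 calls without the library labelled Wt male and 4 without Wt female 3 or without Tg male 2. The calls at 138275739, 138275760 and 138275767 were lower in Tg by 14.7, 14.8 and 16.8 points, and those from 138275933 to 138275992 were higher by 10 to 19.4 points. At 138275933 the Wt animals had 29.4%, 0%, 13.1% and 4.65% and the Tg animals 10.7% to 62.5%, with a mean of 34.7% ± 14.7. Its minus strand had 12.3% ± 6.11 in Wt and 22.1% ± 7.01 in Tg, and its difference moved from 10.4 to 6.12 points without Wt female 3. The mean over the 37 sites of the gene body, given above, included the calls higher in Tg. It left out those lower in Tg, which only 11 animals covered. Sites in that mean that were not called differed in either direction, as at 138275740 (-9.93 points) and 138275978 (7.44 points).

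Gpc5 and Gpc6 are neighbours on chromosome 14, with gene bodies of 1433 and 1051 kb. Gpc5 had 3 calls of 132 sites (2.27%, against 4.37% of all sites), and between 2 and 8 when 1 animal was left out. It had 8 without Wt female 2, 7 without Tg female 4 and 5 without Tg female 2 or Tg female 3. Gpc6 had 18 calls of 210 (8.57%, against 4.37% of all sites), 9 in each direction, and 11 without Tg female 1. Of the 18, 14 were among its 40 sites at levels of 10% to 90%, and 20.1% of all sites at such levels were called. The Gpc5 site with the smallest overdispersion p, at 115385302, was 89.4% ± 7.31 in Wt and 100% in all 7 Tg animals that covered it. Wt female 3 was also at 100%. The Gpc6 site chosen in the same way, at 117378609, was 86.3% ± 16.2 over 3 Wt animals and 98.9% ± 3.02 over 7 Tg animals, and its difference moved from 13.8 to 4.47 points without the library labelled Wt male. The largest differences in Gpc6 lay on the strands of 1 CpG, in opposite directions. Its plus strand at 117795665 had 34.1% ± 38.0 over 3 Wt animals and 70.3% ± 16.5 over 6 Tg animals, and its minus strand at 117795666 had 71.6% ± 18.6 and 32.2% ± 18.7.

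The strands of a CpG are read from separate fragments of the same animals, so they give a description of how repeatable a difference is. Of the 555 CpGs of these genes with both strands covered, 46 differed by at least 10 points on either strand, and 30 of those (65.2%) had the same sign on the other strand, against 55.5% of such CpGs over the genome. Of the 30, 5 were the Hspg2 promoter CpGs whose difference came from Wt female 1, and 1 was the Hspg2 CpG known from earlier results. Without the 5 it was 25 of 41 (61%), and without the known CpG as well 24 of 40 (60%). Where both strands differed by at least 10 points, 8 of 13 had the same sign (61.5%), against 63.4%. Of 9 CpGs called on both strands, 6 had the same sign. Those were the 3 in Hspg2 described above and 1 each in Sdc4, Gpc1 and Gpc2, and the 3 with opposite signs were in Hspg2, Gpc5 and Gpc6. When the library labelled Wt male was left out, 32 of 51 CpGs (62.7%) had the same sign.

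**Figure D5:**
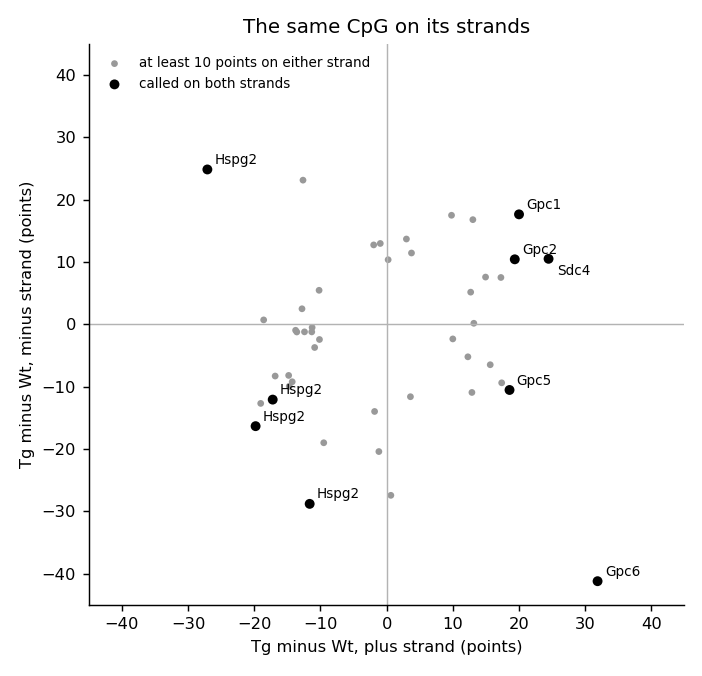
Difference in percentage points (Tg minus Wt) on the plus strand against that on the minus strand for the 46 CpGs with at least 10 points on either strand; black points with gene names are the 9 CpGs called on both strands. Points in the lower left and upper right have the same direction on both strands, which 30 of the 46 do.

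Some sites varied widely among the animals of both groups. Among sites with 20 or more reads in all 12 animals, the largest SDs over the animals, taking 1 site per gene, were at Gpc2 138275740 (12.9% to 69.2%), Sdc3 130815996 (7.69% to 50%), Gpc6 117905743 (9.09% to 53.3%), Gpc1 92848783 (0% to 31.4%) and Gpc5 115092922 (0% to 28.6%). None of these was called. The genotypes overlapped at each of them.

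The sexes were compared in the same way, a contrast that the choice of the genes did not use, with genotype as a covariate. The binomial model called 73 of the 1590 sites (4.59%), 27 higher and 46 lower in males, against 4.94% of all sites, where 1.56% were higher and 3.38% lower. All sites include 30100 on X, where the Tg males had low levels, while these genes are autosomal. The shares over all sites are therefore not a like comparison for sex, and shares over the autosomes alone are not given here. Hspg2 held 36 of the 73 at its 243 sites and Gpc6 held 11 at its 210, while Sdc1 and Sdc2 held 0. Hspg2 also held 106 of the 292 sites of these genes at levels of 10% to 90%. Sex calls were not counted by level. Only 1 of the 73 lay in a promoter, and 11 were also called between the genotypes. With the library labelled Wt male left out, 51 sites were called (3.21%), 45 of them among the 73, against 4.74% of all sites. The overdispersion model called 0, and 0% of all sites. At an unadjusted p under 0.05 it picked 145 sites of these genes (9.12%), against 8.76% of all sites.

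The genes around the pathway were described from lists chosen with earlier results known. Of the enzymes that build and sulfate the chains (27 genes), 174 of 4147 sites were called by the binomial model, 75 higher and 99 lower in Tg (4.20%, against 4.37% of all sites). The X-linked sulfotransferase gene Hs6st2 gave 45 of the 99 lower calls, and its 26 autosomal partners had 75 higher and 54 lower. On X, 4 of the 8 Tg libraries and none of the Wt libraries had the low levels of males, so in the fit of all animals genotype and the number of X chromosomes cannot be told apart at these sites. The libraries labelled female lay between 20.7% and 23.0% on X in both genotypes. In the animals labelled female only, the same list had 87 higher and 86 lower. In the genes for editing and cleavage of the chains (Sulf1, Sulf2, Hpse and Hpse2), 35 of 574 sites were called (6.10%), 19 higher and 16 lower. In the other carriers of heparan sulfate, 58 of 469 sites were called (12.4%). Of these, 42 were in the X-linked genes Gpc3 and Gpc4 (25.1% of their sites) and 16 in the autosomal genes Col18a1 and Tgfbr3 (5.30%). The list had 14 higher and 44 lower in all animals, and 40 higher and 11 lower in the animals labelled female only. Without the library labelled Wt male it had 26 calls, 16 higher and 10 lower. In the laminins, collagens IV, nidogens and dystroglycan that surround perlecan and agrin, 100 of 1562 sites were called, 59 higher and 41 lower (6.40%). Col4a1, a collagen chain of vascular basement membranes named after its count was seen, had 21 of them, at 209 sites. Its share of called sites was not the highest of the list. The shares ran from 0 of 166 sites in Dag1 to 7 of 30 in Lamb3 (23.3%), against 4.37% of all sites. The agrin receptor genes Lrp4 and Musk had 9 of 210 (4.29%), but 16 without Wt female 3 and 14 without Tg male 4. The overdispersion model called 0 sites in each list, and 0% of all sites. At an unadjusted p under 0.05 it picked 404 of 4147 sites in chain synthesis genes and 62 of 574 in editing genes. It picked 32 of 469 in other carriers, 132 of 1562 in basement membrane genes and 12 of 210 in agrin receptor genes. The share over all sites was 9.34%.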

How the data were processed

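Per the labels, brain DNA of 12 mice was read by paired-end RRBS, aligned to mm10 with Bismark and analysed with methylKit (versions not given in the sources used here). The deposited tables, 1 per library, list for each CpG cytosine the count of methylated and unmethylated reads at 10 or more reads. From those counts, levels, differences and tests were computed here (Python 3.11.15, numpy 2.4.6, scipy 1.17.1, R 4.3.3). Each site was fitted with a logistic likelihood ratio test with sex as a covariate, without and with an overdispersion term, and p-values were adjusted by Benjamini-Hochberg over all 1697482 sites. Region means were fitted with limma 3.58.1, with sex as a covariate, and tested by exact permutation over animals (two-sided, without sex). The scripts were tested on simulated data. The binomial model follows the study's approach and treats reads as independent, so its p-values cover counting error only, while the overdispersion model, limma and the permutation test use the spread between animals.

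The members, lists and sites were chosen with earlier results of these data known. Sites were named as those called with non-overlapping groups, the call with the smallest overdispersion p per gene, CpGs called alike on both strands, the covered sites within 300 bases of the Hspg2 site, and the 5 sites with the largest SD. Alternatives are given in the closing section. Replicate numbers only name animals, and the male label of 1 Wt library was kept in the fits.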

Additional observations from a re-analysis of the deposited data

Results flagged for a closer look

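In 10 of 90 groups of animals examined (11.1%), 1 animal stood far from the others of its group. The limit used flags about 1 in 20 groups of values drawn from a normal distribution. It gives no measure of excess here, since many groups lie near 0% or 100% and some sites were named for their large SD. Tg male 3 stood out at 2 sites beside the Hspg2 intron site, with 72.7% at 137503086 (the next animal had 40%) and 29.4% at 137503119 (next 5.08%). Wt female 3 stood out in the Agrn promoter at 1.46% (next 0.645%), at the Sdc4 site 164433014 at 22.7% (the other 3 Wt animals had 0%), and at the Gpc5 site 115092922 at 14.7% (next 4.76%). Wt female 1 stood out at the Sdc1 site 8791648 at 100% (next 81.2%) and at the Gpc6 site 117905743 at 9.09% (next 30.8%). Tg male 4 stood out at the Gpc1 site 92848783 at 21.7% (next 8.62%) and at the Gpc6 site 117378609 at 92%, where the other 6 Tg animals had 100%. Tg male 1 had 2.16% in the Gpc2 promoter (next 1.13%).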

How the results depend on the processing

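The count of 89 called sites fell to 10 at a difference of at least 25 points, 22 at a minimum of 20 reads, 23 among sites covered in all 12 animals, 58 with strands summed and 7 with read counts halved, an alternative chosen after seeing the data. The first 3 of these settings are stricter by construction. Summing strands tested 1035 CpGs in place of 1590 sites, and the share called was 5.6% in both. The cause of the fall with read counts halved was not tested. Leaving out 1 animal gave 58 (without Tg female 1) to 94 calls (without Wt female 1). The share of calls higher in Tg, 56.2%, was 40% at 25 points, 42.9% with counts halved and 48.8% in females only, and ran from 42.4% to 62.8% when 1 animal was left out, with 42.4% without the library labelled Wt male, 47.2% without Wt female 2 and 48.3% without Wt female 3. At a minimum of 20 reads the 73 sex calls became 15 of 1085 sites (1.38%), and the share over all sites at that setting is not given here. The strand agreement of 65.2% became 77.8% at that minimum, but this was 7 of only 9 CpGs, against 58.7% of such CpGs over the genome. Leaving out the 5 Hspg2 promoter CpGs, chosen after seeing the data, gave a strand agreement of 61%. The overdispersion model called 0 of the sites of these genes, and limma 0 of their 19 regions, under every alternative run. Over all 24113 regions limma called 2 without Tg female 3 and 1 without Tg female 4. Of the 19 region differences 14, and of the 27 named sites 6, changed sign under at least 1 alternative. Low coverage limits the single sites, since 1 read at 10 reads is 10 points. No paired analysis was possible because replicate numbers were given in accession order and do not pair animals.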
